A study of Mus musculus with 8 samples.

Results

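The genes described here are 10 genes of the machinery that drives cells into the meiotic divisions, namely Ccna1, Ccna2, Ccnb1, Ccnb2, Ccnb3, Cdk1, Cdc25c, Plk1, Aurkc and Hspa2. They were chosen by gene symbol from a table of 54532 genes, and each of the 10 had 1 row. Expression was measured by RNA-seq of spermatocyte fractions from C57BL/6J mouse testes in 8 libraries, with 1 library for each combination of stage, genotype and age. The stage was pachytene (P) or leptotene and zygotene (L/Z), and the age was postnatal day (PD) 24 or PD 52. MFN2 is mitofusin 2, an outer mitochondrial membrane protein that joins mitochondria to each other. The MFN2 cKO mice carried Mfn2 loxp/loxp with Stra8-Cre, and the MFN2 WT mice carried Mfn2 loxp/loxp without Cre according to the labels, while the methods of the study also allow heterozygous floxed controls. Stra8-Cre is expressed in male germ cells from early spermatogonia to preleptotene spermatocytes, before the stages sampled, and not in the somatic cells of the testis. The fractions were separated by size through sedimentation and judged by cell diameter and morphology. The labels do not say whether the P and L/Z fractions of 1 genotype and age came from the same animals or how many animals were pooled, so the p-values given here measure only the spread among these 8 libraries.

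Entry into a meiotic division is driven by CDK1, a kinase that is active only when bound to an A-type or B-type cyclin. Wee1-family kinases hold the complex inactive by phosphorylation, and CDC25 phosphatases such as CDC25C release it. PLK1 helps to activate CDC25 and to take the synaptonemal complex apart, AURKC corrects the attachment of chromosomes to the spindle in meiotic cells, and HSPA2 is a testis chaperone needed for the assembly of CDK1 with cyclin B in pachytene spermatocytes. Cyclin A1 is the germ cell form of cyclin A and is required for male meiosis, whereas cyclin A2 also serves mitotic cells. Cyclins B1 and B2 are the usual partners of CDK1, and cyclin B3 is a meiotic cyclin transcribed early in prophase and needed for the first meiotic division of oocytes.

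Before the members are described, the labels were compared with marker genes. Mfn2 (ENSMUSG00000029020) had 82.2, 77.1, 97.5 and 62.2 FPKM (fragments scaled to gene length and sequencing depth) in the MFN2 WT libraries of L/Z PD 24, P PD 24, L/Z PD 52 and P PD 52, and 34.3, 39.6, 47.9 and 50.1 FPKM in the matching MFN2 cKO libraries. The cKO value was thus 41.8%, 51.3% and 49.1% of WT in the first 3 pairs and 80.6% in P PD 52, which goes with the label in all 4 pairs, although these values cover the whole gene and not the floxed exon alone. The stage labels were borne out only in part. The summed FPKM of 10 leptotene and zygotene genes ran from 106 to 217 in the libraries labelled L/Z and from 179.7 to 249 in those labelled P, and it was higher in P in all 4 pairs, with 4 to 6 of the 10 genes higher in P. The sum of 10 pachytene markers was higher in P in 3 of 4 pairs, with 2787 to 4474 FPKM in P and 2493 to 4179 in L/Z, and 5 to 8 of the 10 genes were higher in P. All 13 markers of round and elongating spermatids were higher in L/Z than in P in every pair, with sums of 428 to 19432 FPKM in L/Z and 119 to 4719 in P. The 8 Sertoli cell markers were all higher in P in every pair, with sums of 231 to 536 FPKM against 16.4 to 176 in L/Z, and the 6 macrophage markers were all higher in L/Z. Of 8 spermatogonia markers 5 to 7 were higher in L/Z, and of 5 peritubular myoid markers 4 or 5 were, with sums of 46.5 to 159.9 FPKM in L/Z and 5.11 to 32.5 in P. All 7 Leydig cell markers were higher in P in both PD 52 pairs, while 5 of 7 were lower in P in both PD 24 pairs. In all 4 pairs the 7 Leydig cell markers and the 6 macrophage markers were higher in MFN2 cKO than in MFN2 WT. None of these markers was at 0 in all 8 libraries. P and L/Z below are therefore the names of the libraries and not a statement on their content, and since all 4 L/Z libraries are concerned, no comparison of stages is free of them. As these are bulk fractions, fewer cells of a type and less RNA per cell cannot be told apart.

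All 10 genes were detected in all 8 libraries, with 54 to 41089 reads per gene and library out of 14340665 to 20379950 reads on genes. Per length, the transcript levels spanned a wide range. Hspa2 was the most abundant, with a median of 621 FPKM over the 8 libraries and a range of 461 to 770. Ccnb2 followed with a median of 133 FPKM (97.1 to 168), then Ccna1 with 89.1 (83.1 to 114) and Plk1 with 63.8 (40.7 to 73.0). Ccnb1 had a median of 28.0 FPKM (17.5 to 40.8), Aurkc 15.8 (12.5 to 21.1), Cdc25c 9.78 (4.21 to 18.6), Cdk1 7.29 (2.94 to 11.3), Ccna2 5.55 (2.35 to 10.4) and Ccnb3 1.41 (0.81 to 3.62). The kinase Cdk1 was therefore less abundant per length than the B-type cyclins Ccnb1 and Ccnb2 in every library. The ranges of neighbours in this order overlapped except for Hspa2 with Ccnb2 and Ccna1 with Plk1. Within single libraries the order was steadier, since the first 4 neighbouring pairs and Ccna2 with Ccnb3 kept it in 8 of 8 libraries. By contrast, Cdk1 exceeded Ccna2 in 4 of 8 libraries. Ccna1 varied least, with a highest value 1.38 times its lowest, and Cdc25c, Ccna2 and Ccnb3 varied most, at 4.41, 4.41 and 4.44 times.

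**Figure D1:**
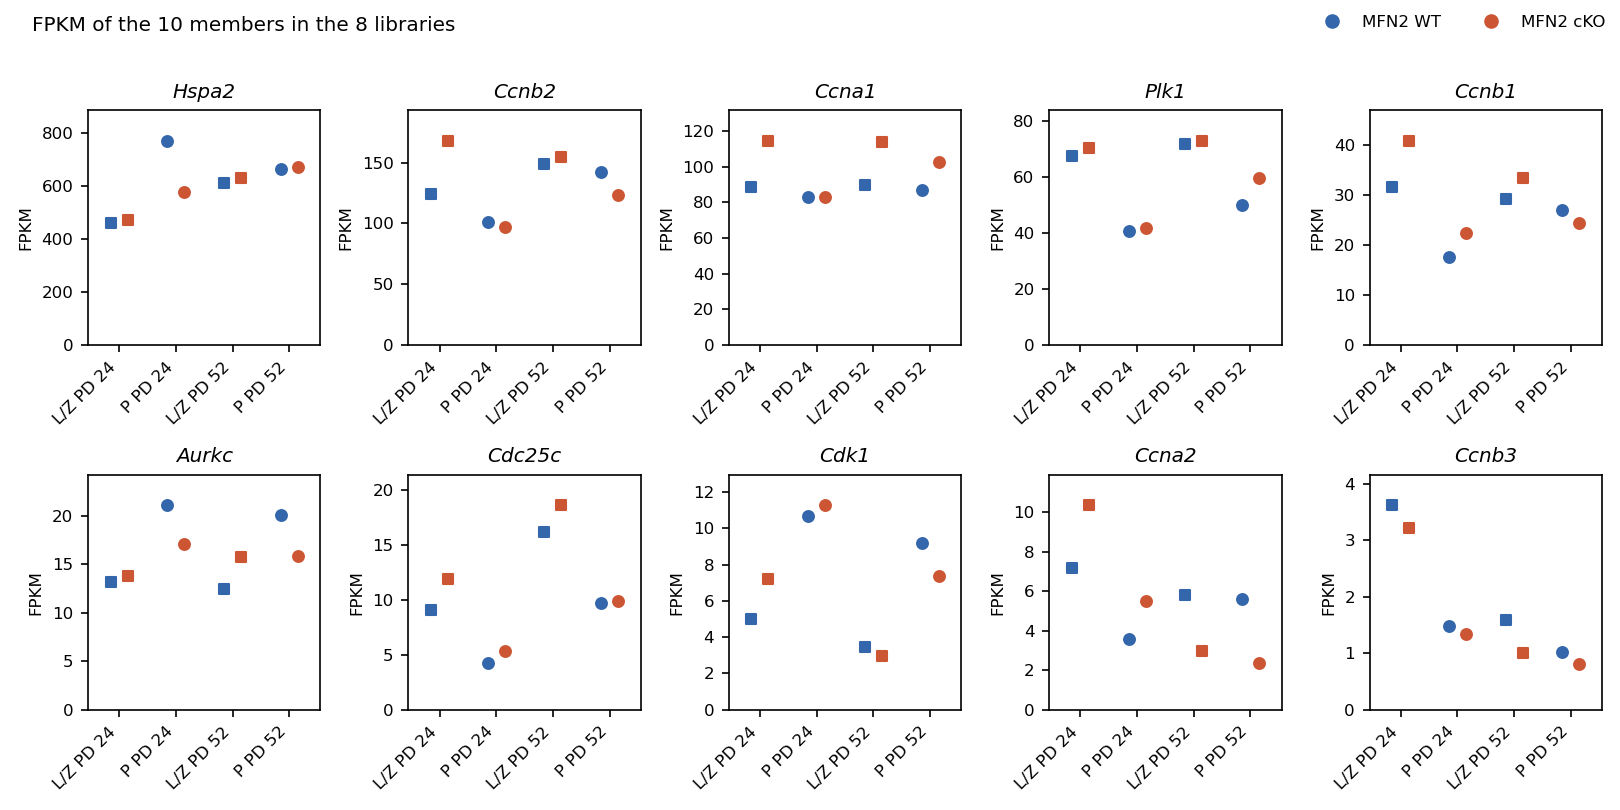
FPKM (vertical axes, each from 0) of the 10 members in the 8 libraries, ordered by median, with squares for L/Z, circles for P and colour for genotype. Each point is 1 library. Cdk1 sits higher in P (7.39 to 11.3 FPKM) than in L/Z (2.94 to 7.19), while Plk1 sits higher in L/Z (67.7 to 73.0) than in P (40.7 to 59.8).

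The A-type cyclins differed in level throughout. Ccna1 had 88.4, 114, 89.9 and 114 FPKM in the L/Z libraries of PD 24 WT, PD 24 cKO, PD 52 WT and PD 52 cKO, and 83.2, 83.1, 86.8 and 102 FPKM in the P libraries in the same order. In that order Ccna2 had 7.16, 10.4, 5.81 and 2.97 FPKM in L/Z and 3.59, 5.52, 5.59 and 2.35 FPKM in P. The ratio of Ccna1 to Ccna2 lay between 11.0 and 23.2 in the 6 libraries other than cKO PD 52, and reached 38.3 in L/Z and 43.6 in P of cKO PD 52. Both genes overlap a gene on the opposite strand, and the sources used here do not state whether strand was used in counting. Exosc9 overlaps Ccna2 and had 3.50 to 6.74 FPKM, so that 11.4% of the 50-base windows of Ccna2 transcripts also lie in Exosc9 transcripts, and 4931419H13Rik overlaps Ccna1 with 3.81 to 6.73 FPKM and 6.98% of its windows.

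Among the B-type cyclins, Ccnb2 made up 77.9% to 84.2% of the summed cyclin B FPKM, Ccnb1 14.6% to 19.8% and Ccnb3 0.53% to 2.27%. Ccnb1 had 31.7, 40.8, 29.1 and 33.3 FPKM in the L/Z libraries of PD 24 WT, PD 24 cKO, PD 52 WT and PD 52 cKO, and 17.5, 22.3, 26.9 and 24.4 FPKM in the P libraries. All 4 P libraries were below all 4 L/Z libraries. The share of Ccnb1 windows found in other genes, such as Ccnb1-ps, was 23.4%, and these genes had at most 1.97 FPKM, so the assignment of some Ccnb1 reads is uncertain. Ccnb2, with no window shared, had 124, 168, 149 and 155 FPKM in L/Z and 101, 97.1, 143 and 124 FPKM in P, and these groups overlapped. Ccnb3 had 3.62, 3.22, 1.58 and 1.00 FPKM in L/Z and 1.49, 1.33, 1.02 and 0.81 FPKM in P. Its level was highest in the L/Z libraries of PD 24 and lowest in cKO PD 52.

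Cdk1, the kinase itself, had 5.01, 7.19, 3.48 and 2.94 FPKM in the L/Z libraries of PD 24 WT, PD 24 cKO, PD 52 WT and PD 52 cKO, and 10.7, 11.3, 9.20 and 7.39 FPKM in the P libraries. The highest L/Z value was below the lowest P value. Its activator Cdc25c had 9.08, 11.9, 16.1 and 18.6 FPKM in L/Z and 4.21, 5.32, 9.70 and 9.87 FPKM in P. Those groups overlapped because the PD 52 values were the higher ones in each stage. Plk1 had 67.7, 70.7, 71.8 and 73.0 FPKM in L/Z, a spread of few FPKM, and 40.7, 41.8, 50.2 and 59.8 FPKM in P. Aurkc had 13.1, 13.8, 12.5 and 15.8 FPKM in L/Z and 21.1, 17.1, 20.1 and 15.8 FPKM in P. Plk1 shared 10.4% of its windows with genes that had at most 3.33 FPKM. Cdc25c shared 11.9% of its windows with other genes, led in windows shared by Gm3550, Chd9, Frmd4b and Snx14. Gm3550 reached 1.57 FPKM, and the highest value among all genes that share a window was 613 FPKM. Which gene held that value, and how many windows it shared, was not resolved. The level of Cdc25c and the differences given for it are therefore uncertain to an extent that is not known. Of the Aurkc windows, 54.8% also occurred in other annotated genes, which reached 10.6 FPKM, so its level is uncertain. Hspa2 had 461, 473, 612 and 630 FPKM in L/Z and 770, 578, 666 and 671 FPKM in P.

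The promoters of 4 members are shown. Cdk1 and Plk1 were called in the comparison of stages described next, and Ccnb1 and Ccnb2, which were not called there, are the main B-type cyclins by level. Cdc25c, which was also called, is not shown. CCAAT boxes, bound by NF-Y, and the cell cycle genes homology region, bound by the DREAM and MuvB complexes, are known elements of cyclin B, Cdk1 and Plk1 promoters. Each stretch comes from RefSeq on GRCm38.p6, is written 5′ to 3′ on the strand of the gene, and ends before the first base of the gene in the table. Capitals mark the CCAAT box, the core of the cell cycle genes homology region (TTTGAA) and the core of MYB sites (AACTG) on either strand, so that a match on the other strand appears as its reverse complement. The stretches are chr10:69352939-69353162 on the minus strand for Cdk1, chr13:100786571-100786736 on the minus strand for Ccnb1, chr9:70421555-70421804 on the minus strand for Ccnb2 and chr7:122159185-122159434 on the plus strand for Plk1.
Cdk1: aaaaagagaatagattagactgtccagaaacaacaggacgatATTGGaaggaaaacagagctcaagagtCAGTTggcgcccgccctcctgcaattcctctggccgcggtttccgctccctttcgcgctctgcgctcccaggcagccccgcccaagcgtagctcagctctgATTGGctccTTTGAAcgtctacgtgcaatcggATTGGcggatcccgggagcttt
Ccnb1: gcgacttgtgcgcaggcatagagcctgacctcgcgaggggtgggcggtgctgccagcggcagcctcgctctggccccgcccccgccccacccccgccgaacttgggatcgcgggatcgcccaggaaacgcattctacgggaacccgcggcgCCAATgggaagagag
Ccnb2: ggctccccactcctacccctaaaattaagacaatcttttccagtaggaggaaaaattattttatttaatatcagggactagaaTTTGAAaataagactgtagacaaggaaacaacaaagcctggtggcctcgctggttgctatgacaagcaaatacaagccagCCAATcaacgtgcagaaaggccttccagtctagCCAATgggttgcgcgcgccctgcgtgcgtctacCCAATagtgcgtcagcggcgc
Plk1: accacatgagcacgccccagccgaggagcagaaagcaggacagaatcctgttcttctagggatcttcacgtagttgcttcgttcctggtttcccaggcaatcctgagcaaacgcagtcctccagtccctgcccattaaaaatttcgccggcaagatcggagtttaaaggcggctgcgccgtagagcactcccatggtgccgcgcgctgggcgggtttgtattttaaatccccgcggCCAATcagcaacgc

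RefSeq promoters were matched for 8 of the 10 members, and motifs were searched in the 250 bases before each start. CCAAT occurred in 6 of the 8, against 33.8% of 32851 promoters of this length. Cdk1 and Ccnb2 each had 3 matches, Ccnb1 had 2, and Plk1 had 1, which began 14 bases before the start. TTTGAA occurred in Ccnb2 and Cdk1, against 16.0% of all promoters. AACTG occurred in 4 of the 8, namely Ccnb1, Ccnb3, Cdk1 and Hspa2, against 39.1%, and in Cdk1 the match nearest the start shares its end base with a TTTGAA beyond the printed stretch. The cAMP response element TGACGTCA, which 1.55% of all promoters hold, was not found in these windows. These are matches of letters and no measure of binding. TTTGAA began 167 bases before the start in Ccnb2 and 71 and 15 bases before it in Cdk1. A part of these motifs in the differences between libraries was not tested.

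P and L/Z libraries were compared over the 4 pairs of the same genotype and age, on the log2(FPKM + 1) scale, which understates the change of low genes. In P, Cdk1 was higher, while Cdc25c and Plk1 were lower. The other 7 members did not pass an adjusted p of 0.05 in limma. All 10 had 1 direction in all 4 pairs. When reads were scaled to each library's own total 7 of 10 did so, and Ccna1, Ccna2 and Ccnb2 did not. The share of all genes with 1 direction in all 4 pairs was not computed, so these counts have no background beside them. The difference for Cdk1 was 0.96 ± 0.16 (SE, limma adjusted p = 0.00622), from a mean of 4.65 FPKM in L/Z to 9.64 FPKM in P. Cdc25c fell by 0.88 ± 0.14 on this scale (limma adjusted p = 0.00602), from a mean of 13.9 to 7.27 FPKM, and Plk1 fell by 0.56 ± 0.16 (limma adjusted p = 0.0346), from 70.8 to 48.1 FPKM. With 1 of 10 members higher and 2 of 10 lower, the calls stand beside 12.4% of 21175 genes called higher and 16.0% called lower, and the members' share is near this background. The median difference over the members was -0.42, against -0.04 over all genes tested. Cdk1 was the only member called higher. Scaled to own totals, Plk1 had an adjusted p of 0.0595 in limma, and its call was lost also without any 1 of the 4 pairs (limma adjusted p of 0.0585 to 0.140) and without the FPKM filter (0.0638). Without the PD 24 WT pair or without the PD 52 cKO pair the test called 0 members and 0 of all genes, with adjusted p-values of 0.0572 to 0.0675 for Cdk1 and Cdc25c.

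The 3 B-type cyclins had lower values in P in all 4 pairs without passing the test, except that Ccnb2 was 0.04 in the PD 52 WT pair on own totals. The differences were -0.55 for Ccnb1 (limma adjusted p = 0.0545, and 0.0316 without the PD 52 WT pair), -0.56 for Ccnb3 (limma adjusted p = 0.0564) and -0.37 for Ccnb2 (limma adjusted p = 0.153). Those of the A-type cyclins were -0.48 for Ccna2 (limma adjusted p = 0.0864) and -0.18 for Ccna1 (limma adjusted p = 0.396). Aurkc, at 0.40, and Hspa2, at 0.31, had higher values in P (limma adjusted p = 0.115 and 0.225). Per pair, the Cdk1 difference lay between 0.58 and 1.19 and that of Cdc25c between -1.03 and -0.68. Within each genotype the pair of PD 24 gave the larger value for each B-type cyclin, as Ccnb1 had -0.82 and -0.84 in WT and cKO at PD 24, against -0.11 and -0.43 at PD 52. The difference between ages was itself tested and called for 0 of 10 members and for 0 of 21175 genes in limma (0.0% in either direction). At an unadjusted p under 0.05 it gave 1 of 10 members, Ccna2 (0.67 ± 0.26, limma adjusted p = 0.505), beside 1983 of the 21175 genes. Spermatid and macrophage markers were higher in the L/Z library of every pair, most myoid and spermatogonia markers too. Sertoli cell markers were higher in the P library. Leydig cell markers were higher in P at PD 52 and mostly lower in P at PD 24, as given above. The part of these cell types in the stage differences was not tested.

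**Figure D2:**
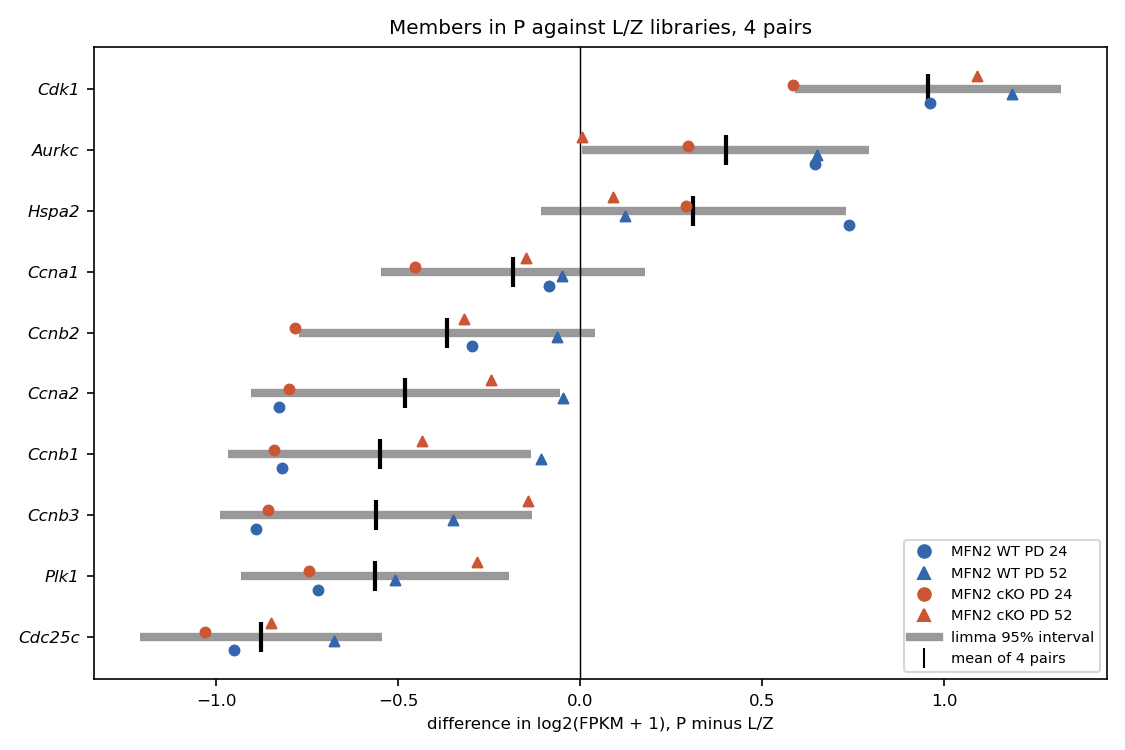
Difference in log2(FPKM + 1) between P and L/Z libraries (horizontal axis) for the 10 members, where each point is 1 pair of libraries of the same genotype and age, the tick is the mean of the 4 pairs and the grey bar the limma 95% interval. Cdk1 (0.96) and Cdc25c (-0.88) lie farthest from 0, and the 4 points of every member fall on 1 side of 0 with the deposited scaling, against 7 of 10 members on own totals. The share of all genes that do so was not computed.

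Ratios between members were formed within each library. Ccnb1 FPKM was 1.64 to 3.30 times that of Cdk1 in P and 5.67 to 11.3 times in L/Z. For Ccnb2 to Cdk1 the ratio was 8.61 to 16.8 in P and 23.4 to 52.6 in L/Z, and for Cdc25c to Cdk1 it was 0.39 to 1.34 in P and 1.66 to 6.32 in L/Z. Plk1 to Aurkc, the kinases of chromosome segregation, was 1.93 to 3.78 in P and 4.63 to 5.77 in L/Z. None of these 4 ratios overlapped between the stages. Those with Cdk1 as the divisor are not independent of each other. Hspa2 to Cdk1, with 51.2 to 90.8 in P and 65.8 to 214 in L/Z, did overlap. So did Ccna1 to Ccna2 (15.1 to 43.6 in P, 11.0 to 38.3 in L/Z) and Ccnb2 to Ccnb1 (4.36 to 5.77 and 3.93 to 5.12). Ccnb2 to Ccnb3 overlapped as well (67.9 to 152 and 34.4 to 154). The share of all gene ratios without overlap was not computed. The ratios do not depend on the scaling of a library, but they were formed from genes already seen to differ and are given without a test.

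**Figure D3:**
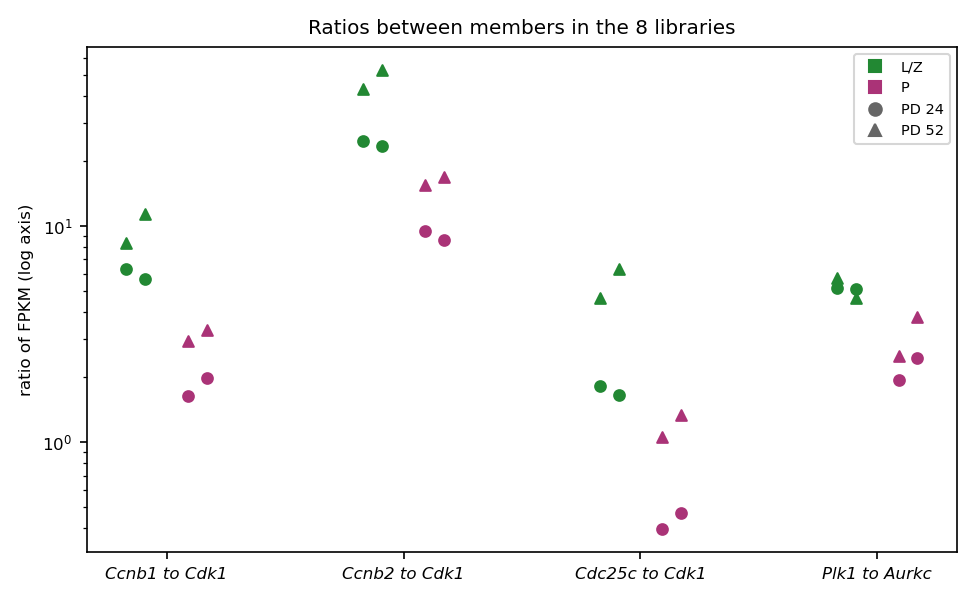
Ratios of FPKM between members (log axis) in the 8 libraries, with 1 point per library, green for L/Z, purple for P, circles for PD 24 and triangles for PD 52. In each of the 4 ratios the P libraries lie below all L/Z libraries, as in Ccnb1 to Cdk1 with 1.64 to 3.30 against 5.67 to 11.3. Only ratios without overlap between the stages are shown, and those that overlapped are given in the text.

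The other genes of the pathway were followed in 9 lists with 60 measured genes, of which 59 passed the filter on low values. In P, 16 of the 59 were called higher and 6 lower by limma, with a median difference of 0.06, beside 12.4% and 16.0% of all genes and a median of -0.04. Cks2, a small subunit that binds CDK1, had the largest difference, 2.21 ± 0.23 (limma adjusted p = 0.003), from a mean of 41.6 FPKM in L/Z to 185 in P. It was followed by Fbxo43, an inhibitor of the anaphase-promoting complex required for meiosis, with 1.78 ± 0.19 (limma adjusted p = 0.00326), and by Cdk2, a kinase found at telomeres and crossover sites of meiotic chromosomes, with 1.64 ± 0.17 (limma adjusted p = 0.00311). The largest falls were those of Ccnd3, cyclin D3, by 1.07 ± 0.14 (limma adjusted p = 0.00395), of the CDK inhibitor Cdkn1c, by 0.91 ± 0.25 (limma adjusted p = 0.0332), and of Ppp2r2d, a subunit of the phosphatase that opposes CDK1, by 0.78 ± 0.16 (limma adjusted p = 0.0123).

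By list, and against that same background over all genes, 4 of 10 other CDKs, CKS subunits and CDK inhibitors were higher and 1 was lower in P. Of the 10 activators, inhibitors and targets of the anaphase-promoting complex 3 were higher, and of the 6 spindle checkpoint genes 3 were higher, namely Bub1b, Bub3 and Mad1l1, which were named after their values were seen. Of the 7 genes of the other Aurora kinases, the chromosomal passenger complex and haspin 2 were higher and none was lower. The Greatwall module, which restrains that phosphatase during division, had 2 of 5 genes lower and none higher. The CDK1 inhibitory kinases and other CDC25 phosphatases had 1 higher and 1 lower among the 4 tested, as did the 5 cyclins of the earlier cell cycle phases and the 8 regulators of the exit from pachytene. Among the 4 other polo-like kinases and activators 1 was higher. The members' median of -0.42 thus stood beside list medians from -0.37 to 0.53.

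**Figure D4:**
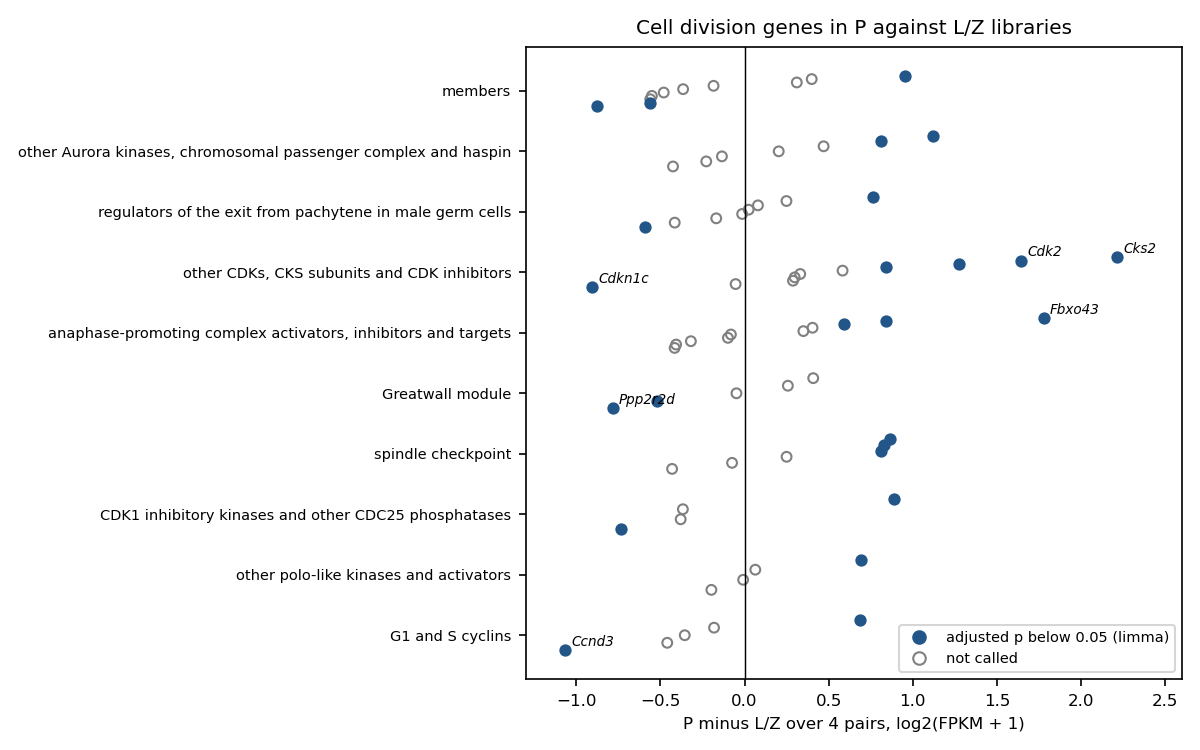
Difference in log2(FPKM + 1) between P and L/Z libraries over 4 pairs (horizontal axis) for the members and 9 lists of other cell division genes, with 1 point per gene, filled where limma's adjusted p was below 0.05. Of the 59 other genes 16 are filled on the higher side and 6 on the lower side, with Cks2 at 2.21 and Ccnd3 at -1.07 as the extremes.

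The ages were compared over the 4 pairs of the same stage and genotype. Cdc25c was the 1 member of 10 called higher at PD 52, by 0.80 ± 0.14 (limma adjusted p = 0.0197), from a mean of 7.63 FPKM at PD 24 to 13.6 FPKM at PD 52, and it was higher in 4 of 4 pairs. No member was called lower. Over all 21175 genes 11.9% were called higher and 5.41% lower. Ccnb3 had a difference of -0.64 (limma adjusted p = 0.0629), from 2.41 to 1.11 FPKM, and Cdk1 of -0.56 (limma adjusted p = 0.0797), from 8.54 to 5.75 FPKM, both in 4 of 4 pairs. For Ccna2 the difference was -0.56 with an SE of 0.33 (limma adjusted p = 0.26). Aurkc, Ccnb1, Ccna1, Hspa2, Plk1 and Ccnb2 lay between -0.01 and 0.25. The call for Cdc25c was lost when reads were scaled to each library's own total (0.61, limma adjusted p = 0.0657), which moved the median of all genes from 0.00 to -0.15 and also turned the signs for Ccna1 (-0.11) and Ccnb1 (-0.12). Without the L/Z cKO, the L/Z WT or the P cKO pair the test called 0 members and 0 of all genes. The spermatid marker sum was 119 to 2476 FPKM at PD 24 and 2147 to 19432 FPKM at PD 52. The peritubular myoid sum was 28.9 to 159.9 FPKM at PD 24 and 5.11 to 55.3 FPKM at PD 52. From PD 24 to PD 52 the Leydig sum went from 19.9 to 260 FPKM in P WT and from 137 to 660 in P cKO. In L/Z it went from 35.5 to 28.1 in WT and from 202 to 100 in cKO. The Sertoli sum went from 176 to 16.4 FPKM in L/Z WT and from 142 to 47.9 in L/Z cKO. In P it went from 441 to 445 in WT and from 536 to 231 in cKO. The part of these cell types in the age differences was not tested.

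Among the other 59 cell division genes 2 were called higher at PD 52, Ccnd3 (0.96 ± 0.14, limma adjusted p = 0.015) and Ppp2r2d (0.61 ± 0.13, limma adjusted p = 0.0301). Lower were 5 genes, led by Plk3, a stress-responsive polo-like kinase (-1.46 ± 0.21, limma adjusted p = 0.015), Cdkn1b, the CDK inhibitor p27 (-0.88 ± 0.17, limma adjusted p = 0.025), and Cdk2 (-0.69 ± 0.17, limma adjusted p = 0.0412).

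MFN2 cKO and MFN2 WT were compared to learn whether loss of MFN2 changed these transcripts. Over the 4 pairs of the same stage and age, limma called 0 of 10 members, against 0.132% of 21175 genes called higher and 0.00472% called lower. At an unadjusted p under 0.05 there were again 0 members, and 1467 of all genes. Mfn2 itself, with -0.87 ± 0.19, was lower in 4 of 4 pairs and had an adjusted p of 0.275 in limma, so the test did not call even the targeted gene. The largest member differences were 0.23 for Ccna1 with a 95% interval of -0.12 to 0.59, 0.21 for Cdc25c with -0.13 to 0.55, and -0.19 for Ccna2 with -0.90 to 0.51, and their limma adjusted p-values were 0.829, 0.835 and 0.953. Those intervals do not show that the genotypes were alike. None of the 59 other cell division genes was called, nor did any have an unadjusted p under 0.05 in limma. The Leydig cell and macrophage markers, all higher in cKO in each pair, and the spermatid markers, all 13 lower in cKO in P and L/Z of PD 24, 12 of 13 lower in P PD 52 and all higher in L/Z PD 52, moved with genotype, and their part in these values was not tested.

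Within single pairs there is 1 library on each side and no replicate check, so changes of at least 2-fold on the log2(FPKM + 1) scale were counted and 95% intervals were computed that cover counting error only. In none of the 4 pairs did a member reach 2-fold on this scale, whereas with a pseudocount of 0.1 Ccna2 did so in P PD 52 (-1.22). Over all genes with FPKM above 1 in the pair, 3.45% were at least 2-fold higher and 7.03% lower in cKO for L/Z PD 24, 1.79% and 6.29% for P PD 24, 4.83% and 3.12% for L/Z PD 52, and 5.21% and 5.78% for P PD 52. The counting intervals excluded 0 for 7, 5, 7 and 7 of the 10 members in these pairs in the same order, beside 63.7%, 56.3%, 54.3% and 62.6% of all genes, so the members' share was near that of all genes. These intervals say nothing of the spread between animals.

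Ccna2 came nearest to 2-fold and changed sign with age. In P PD 52 its FPKM in cKO was 42.0% of that in WT (2.35 against 5.59), and the added 1 FPKM keeps the log2 value short of 2-fold. In cKO it was 0.48 higher in L/Z PD 24 (interval 0.33 to 0.62) and 0.50 higher in P PD 24 (0.33 to 0.68), with 552 and 750 reads in WT and cKO of L/Z and 296 and 419 in P. At PD 52 it was -0.78 in L/Z (-0.99 to -0.57), with 355 and 177 reads, and -0.98 in P (-1.19 to -0.76), with 366 and 139 reads. The difference between the ages was -1.37 ± 0.26 (unadjusted p = 0.00163 and adjusted p = 0.131 in limma). It was thus not called over all genes, of which 0.0142% were called higher and 0.0% lower. At an unadjusted p under 0.05 in limma the same term held 1 of 10 members and 2641 of 21175 genes. The sum of 8 spermatogonia markers took the same signs, although the single markers were split. The summed FPKM in WT and cKO was 112 and 164 in L/Z PD 24, 90.9 and 104 in P PD 24, 86.8 and 44.6 in L/Z PD 52, and 101 and 50.5 in P PD 52. In cKO 8 and 7 of the 8 markers were higher in L/Z and P of PD 24, while 6 of 8 were lower in L/Z PD 52 and 4 of 8 in P PD 52, where the other 4 were higher. The fall of the sum in P PD 52 lay mostly in Uchl1, at 51.6 FPKM in WT, and Dmrt1 (21.1 to 8.37 FPKM), both of which were singled out after their values were seen. The sum of 5 peritubular myoid markers also took the same signs. It was 115 and 159.9 FPKM in WT and cKO of L/Z PD 24, and 28.9 and 32.5 in P PD 24. At PD 52 it was 55.3 and 46.5 in L/Z and 10.2 and 5.11 in P. Of these 5 markers 3 and 4 were higher in cKO in L/Z and P of PD 24, and 4 and 5 were lower at PD 52. The part of these cell types in the Ccna2 values was not tested. Exosc9, which overlaps Ccna2, had 4.66 and 6.74 FPKM in WT and cKO of L/Z PD 24 and 6.28 and 5.33 in P PD 24. It had 4.84 and 3.50 in L/Z PD 52 and 6.66 and 5.50 in P PD 52. Exosc9 thus had the sign of Ccna2 in L/Z PD 24, L/Z PD 52 and P PD 52, and the opposite sign in P PD 24. Its part in the Ccna2 values was not tested.

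The remaining cyclins differed less between the genotypes. Ccna1 in cKO was 0.37 and 0.33 higher in L/Z of PD 24 and PD 52 and 0.23 higher in P PD 52, with intervals above 0, but it had the same level in P PD 24 (83.2 and 83.1 FPKM). On the scaling to own totals that last value became 0.17. Ccnb1 in cKO was higher by 0.35 and 0.33 in L/Z and P of PD 24 and by 0.19 in L/Z PD 52, and it was -0.14 in P PD 52. Ccnb2 in cKO was 0.43 higher in L/Z PD 24 and -0.20 in P PD 52, with intervals that included 0 in the other pairs. Ccnb3 had values from -0.36 to -0.09 (0.01 in P PD 24 on own totals), and its interval excluded 0 in L/Z PD 52 alone.

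For the kinases and their regulators the values were of the same order. Cdk1 in cKO was 0.45 higher in L/Z PD 24 (0.30 to 0.60) and -0.28 in P PD 52 (-0.43 to -0.14), with 0.07 and -0.19 in the other pairs. Cdc25c was 0.36, 0.28 and 0.19 in L/Z PD 24, P PD 24 and L/Z PD 52 with intervals above 0, and 0.02 in P PD 52. On own totals Cdc25c was 0.43 in P PD 24 and 0.10 in L/Z PD 52. Plk1 stood between 0.02 and 0.25 (-0.08 in L/Z PD 52 on own totals). Aurkc was 0.06 and 0.32 in L/Z of PD 24 and PD 52 against -0.29 and -0.33 in P, and -0.12 in P PD 24 on own totals. Hspa2 differed most in P PD 24, where it was -0.41 (-0.44 to -0.39), from 770 to 578 FPKM, and -0.24 on own totals, and otherwise by 0.01 to 0.04 (-0.06 in L/Z PD 52 on own totals). All 10 pachytene markers were lower in cKO in P PD 24, with sums of 3468 FPKM in WT and 2787 in cKO. In P PD 52 5 of 10 were lower, and in each L/Z pair 3 of 10. The part of these markers' cells in the Hspa2 values was not tested. The interaction of genotype with stage was called for 0 of 10 members and for 0 of 21175 genes in limma (0.0% in either direction), and 0 members and 876 genes had an unadjusted p under 0.05.

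**Figure D5:**
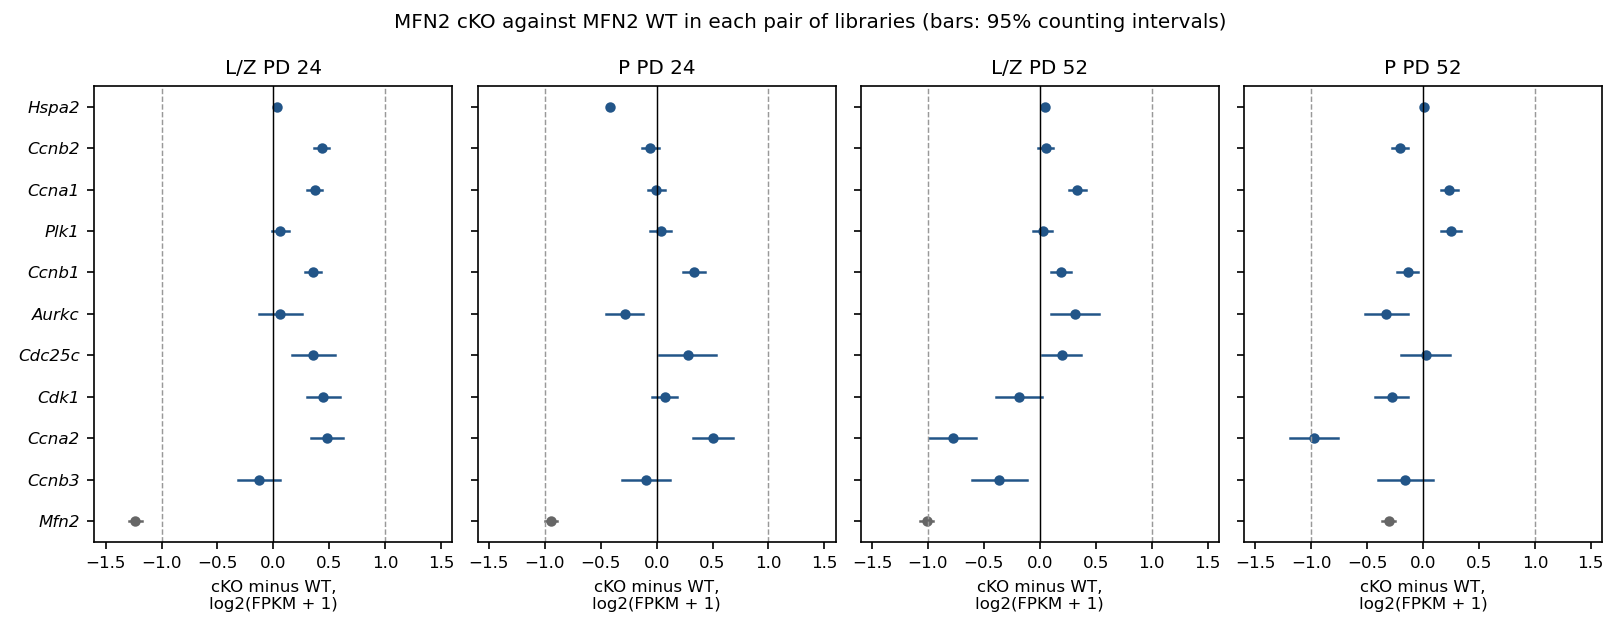
Difference in log2(FPKM + 1) between MFN2 cKO and MFN2 WT (horizontal axes) for the 10 members and Mfn2 in each of the 4 pairs of libraries, with 95% counting intervals as bars and dashed lines at 2-fold. Mfn2 lies at -1.23, -0.94, -1.01 and -0.31, no member passes a dashed line, and Ccna2 lies right of 0 at PD 24 and left of 0 at PD 52.

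Of the 59 other cell division genes, 4 differed at least 2-fold in a pair. In P PD 52, Cks1b, which like Cks2 binds CDK subunits, fell from 12.9 FPKM in WT to 5.02 in cKO (-1.21, interval -1.53 to -0.89). In L/Z PD 52, Cks2 went from 46.2 to 18.9 FPKM (-1.25, interval -1.49 to -1.01), the cyclin D1 gene Ccnd1 from 4.06 to 1.13 FPKM (-1.25, interval -1.46 to -1.02), and the CDK inhibitor Cdkn1a from 1.52 to 5.53 FPKM (1.37, interval 1.13 to 1.61).

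The genes whose FPKM pattern over the 8 libraries was most like that of a member were sought among 6683 other protein-coding genes with FPKM above 10 in at least 1 library. For Cdk1 these were Golga7, Amd1 and Hacd3, with Pearson r of 0.997, 0.996 and 0.994. For Hspa2 they were Ybx3, Il3ra and Actr1a (0.98, 0.98 and 0.97), for Ccnb1 they were Ginm1, Tmem109 and Gm773 (0.96, 0.96 and 0.95), and for Ccna1 they were Slco6c1, Bcap29 and Hyls1 (0.95, 0.95 and 0.94). Ybx3, which encodes a DNA- and RNA-binding protein of germ cells, ran from 474 to 831 FPKM. Among the members the highest r was that of Cdc25c with Plk1 (0.90) and the lowest that of Cdk1 with Cdc25c (-0.87). These values describe 8 libraries that share stage, age and cell composition, and they carry no test.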

How the data were processed

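RNA from 8 spermatocyte fractions, with 1 library per group, was sequenced in paired ends, and per the labels and methods the authors deposited FPKM per gene, which is a normalized unit and no count. The submitters' notes name CASAVA 1.4, Bowtie 0.12.2, mm8 and mm9 without roles, whereas 98.3% of the gene coordinates were identical to GENCODE annotation of GRCm38. Strand use in counting is not given in the sources used here. FPKM multiplied by gene length came out in whole reads for 100.0% of values (tolerance 0.001), with 14340665 to 20379950 reads on genes. The deposited FPKM gave a median-of-ratios factor of 1.02 in all 8 libraries, so they already carried that scaling.

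Values were analysed as log2(FPKM + 1). Stage, age and genotype were tested with limma 3.58.1 in R 4.3.3 over 4 pairs each, with the pair as a block and a mean-variance trend, over the 21175 genes that exceeded an FPKM of 1 in any library, and p-values were adjusted by Benjamini-Hochberg with a threshold of 0.05. Differences of genotype by age, genotype by stage and stage by age were tested as interaction terms. Single pairs have no test, and their exact 95% Clopper-Pearson intervals cover counting error only. The limma and pair procedures were tested on simulated data. The settings varied were the pseudocount (0.1), the low-value filter (none), the scaling (a further median-of-ratios step), the block (none), the prior variance (shared), each pair in turn and, chosen after seeing the data, scaling to each library's own reads. The members and lists were chosen with earlier results of these data known. The text names all 10 members and Mfn2. From the other lists it names the 3 largest called genes per direction and test, the genes changed 2-fold in a pair, and for 4 members the 3 genes most alike in pattern. Of the genes outside this rule, 3 spindle checkpoint genes and 2 markers were named after their values were seen, and genes that overlap or share windows with a member are named for that.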

Additional observations from a re-analysis of the deposited data

Results flagged for a closer look

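In 4 members the difference between MFN2 cKO and MFN2 WT had opposite signs in the 2 pairs of one age or stage and the 2 pairs of the other. The difference itself was tested as an interaction term in limma, and none of the 4 was called. The share of all genes with such a split of signs was not computed, so the count of 4 has no background beside it. For Ccna2 the cKO difference at PD 52 minus that at PD 24 was -1.37 (unadjusted p = 0.00163, adjusted p = 0.131), and the counting intervals of all 4 pairs excluded 0. At an unadjusted p under 0.05 in limma that term held 2641 of 21175 genes. For Cdk1 the same term was -0.49 (limma adjusted p = 0.525), and 2 of 4 intervals excluded 0. For Aurkc the cKO difference in P minus that in L/Z was -0.50 (limma adjusted p = 0.972), with 3 of 4 intervals excluding 0, and 54.8% of the windows of this gene are shared with other genes. For Ccnb2 it was -0.37 (limma adjusted p = 0.972), with 2 of 4 intervals excluding 0, and scaled to own totals the pairs P PD 24 and L/Z PD 52 changed to 0.12 and -0.05, which ends the split of signs.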

How the results depend on the processing

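With 1 library per group, the tests rest on 4 pairs whose libraries differ in content, and they hold few degrees of freedom. Depth limits Ccnb3 most, with 54 to 312 reads per library. With a pseudocount of 0.1, genes at least 2-fold different numbered 2330 in P PD 24, 3364 in P PD 52, 3125 in L/Z PD 24 and 2683 in L/Z PD 52 against 1354, 1917, 1852 and 1420, because low genes then reach 2-fold more easily, and 1 member, Ccna2 in P PD 52 (-1.22), joined them. The deposited FPKM were already scaled by median of ratios, so repeating that step changed no call of a member.

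Without the FPKM filter limma called 3010 genes for stage and 791 for age against 6013 and 3669, over more genes tested. For genotype it called 0, with a pseudocount of 0.1 it called 7, without the block 3 and with 1 prior variance 18, against 29. Without the block 2 members were called for age, Cdc25c and Ccnb3. Scaled to own totals, 0 members were called for age, the differences of Ccna1, Ccnb1 and Mfn2 turned to -0.11, -0.12 and -0.015, and 53.5% of the genes called were higher, against 68.8%. The cause was not tested.

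When each pair was left out in turn, genes called ranged from 0 to 5000 for stage, from 0 to 3937 for age and were 0 for genotype in all 4 cases, where each fit has fewer samples, and members called ranged from 0 to 3 for stage and from 0 to 1 for age. The signs of some differences that were not called turned. For stage this was Mfn2 (-0.22 to 0.057). For age these were Ccnb1 (-0.093 to 0.20) and Aurkc (-0.080 to 0.016). For genotype these were Ccna2 (-0.43 to 0.067), Ccnb2 (-0.069 to 0.14), Cdk1 (-0.13 to 0.11), Aurkc (-0.18 to 0.031) and Hspa2 (-0.12 to 0.029). The stage and age differences of Cdk1, Cdc25c and Plk1 kept their sign in every setting run. No paired analysis by replicate number was possible because each group has a single library.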
